A study of Danio rerio with 170 samples.

Results

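Tetrabromobisphenol A (TBBPA) was profiled in 4 RNA-seq libraries of whole zebrafish embryos of the wild-type Tropical 5D strain, exposed at a nominal 4 µM and collected at 48 hours post fertilization (hpf). They were chosen by their labels, as the TBBPA columns that carry the study tag of the flame retardant chemicals (FRCs), and make up 4 of the 43 libraries with that tag and of the 170 samples in the series. TBBPA was set against 3 things: its brominated ether TBBPA-DBPE, tested at the same nominal 4 µM in 4 libraries, the mean of all 9 other FRC-tagged chemicals (35 libraries), and the vehicle, dimethyl sulfoxide (DMSO), in 4 libraries labelled 0.64% DMSO. Besides TBBPA-DBPE, the 9 chemicals were TDBPP at 3 µM, TPP at 8 µM, IPP at 19.8 µM, TBPH at 72 µM, TCPP (3 libraries), TCEP and BDE-47 at 85 µM, and TiBP at 158 µM. Chemical stocks were dissolved in DMSO, but the labels give a DMSO percentage only for the DMSO libraries. The nominal doses of the 9 chemicals, apart from that of TBBPA-DBPE, were not matched to that of TBBPA. By the paper, FRC doses were set at the EC80 of an earlier phenotypic screen, or at the top dose screened where no EC80 was reached. The labels do not say which of these applied to each chemical. Whole embryos were lysed, so each value is a sum over all tissues, and a smaller number of cells of a type cannot be told apart from less RNA per cell. Nothing in the labels says whether the replicates came from separate spawns. The p-values thus measure the spread between libraries of a group, pooled over the 43 FRC-tagged libraries, and that spread may be technical.

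TBBPA is a bisphenol A with bromine beside each phenol hydroxyl and is a flame retardant of printed circuit boards. In cell-free and cell culture assays it is known to bind the thyroid hormone carrier transthyretin and to activate the receptor PPARγ. TBBPA-DBPE is the same brominated bisphenol with each phenol hydroxyl capped by a dibromopropyl ether. At 48 hpf the embryo has a beating heart, a patterned brain and a retina in which photoreceptors are beginning to differentiate, its fin folds are held up by actinotrichia, its jaw cartilage is forming, and neutrophils and macrophages are present while lymphocytes are not yet mature.

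TBBPA replicate 2 stood apart from the other 42 libraries and is treated separately below. It had 10957931 recovered reads, and the other 42 libraries had 11682593 to 22152985. Its count of genes at 0 reads was 1506, against 268 to 316 in the other TBBPA libraries and 94 to 382 in the other 42. Its median correlation with the rest was 0.831, and that of the other 42 libraries lay between 0.921 and 0.970. Ribosomal protein transcripts took 9.56% of its reads, against 0.928% to 2.32% elsewhere, and the 20 most abundant genes took 26.5%, against 12.1% to 17.6%. Each result is therefore given with all 4 TBBPA libraries, and its value without replicate 2 is added where that differs. A gene with 0 reads in replicate 2 may lie anywhere up to 5.9 normalized reads, the level of 3 reads there (counting error only). The whole-embryo markers were all detected: 16 of 16 markers of heart, muscle, red cell, lens, pigment cell, hatching gland, neuron, liver, pancreas, epidermis and yolk were above 0 in all 43 libraries. Among them 1, the neuronal factor neurod1, had an adjusted p under 0.05 against DMSO (log2 difference -0.79, SE 0.20, adjusted p = 0.00881), and 0 of the 16 were differentially expressed genes (DEGs).

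**Figure D1:**
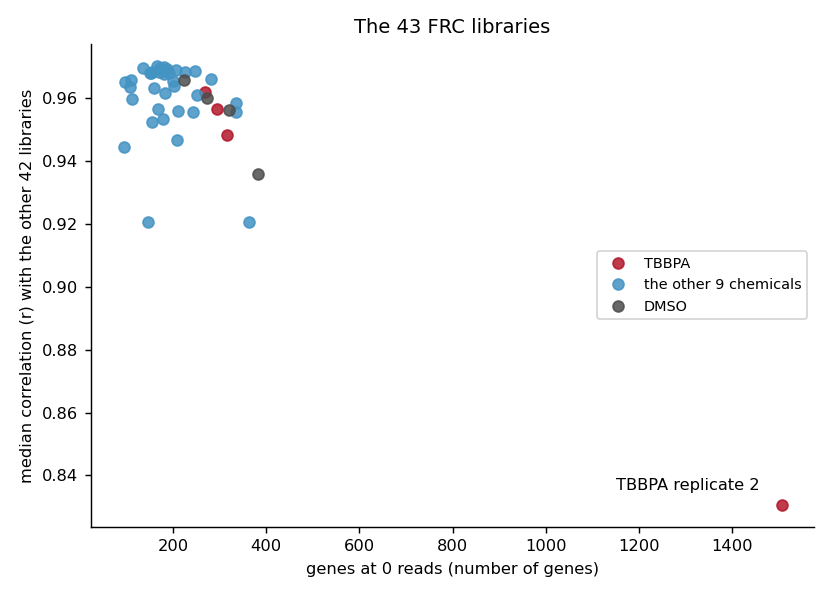
Median correlation of each FRC-tagged library with the other 42 (y axis, Pearson r of log2 values) against its number of genes at 0 reads (x axis), with 1 point per library, colored by TBBPA, the other 9 chemicals and DMSO. TBBPA replicate 2, at 1506 genes and 0.831, lies far from the other 42, which have 94 to 382 genes at 0 and correlations of 0.921 to 0.970.

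Against DMSO, TBBPA embryos had more transcript of inflammatory genes and of the metalloproteinases mmp9, mmp13a and mmp13b, and less of photoreceptor genes, the fin fold genes and2 and and4, the cartilage genes matn1 and acana and the myelin genes mbpa and mag. The matrix metalloproteinase mmp9 rose by a log2 difference of 4.24 and the cytokine il1b by 3.91, whereas the retinal G protein subunit gnb3a was changed by -3.60, the cartilage matrix gene matn1 by -3.33 and the fin fold gene and2 by -2.39. A DEG was a gene with an adjusted p under 0.05 (limma, Benjamini-Hochberg over 21854 genes) and an absolute log2 difference over 1, on log2(normalized reads + 1). By this rule 854 genes (3.91%) differed, 446 higher (2.04%) and 408 lower (1.87%). Without replicate 2 there were 649 DEGs (2.97%, with 372 higher, 1.70%, and 277 lower, 1.27%), and 472 genes were DEGs in both fits (259 higher, 1.19%, and 213 lower, 0.975%). Leaving out TBBPA replicate 4 instead gave 1294. A fit to the 8 TBBPA and DMSO libraries alone gave 167, with fewer residual degrees of freedom and a spread estimated from those libraries only. The 4 TBBPA libraries did not overlap the 4 DMSO libraries in 9.71% of all genes (974 above, 4.46%, and 1148 below, 5.25%).

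Inflammatory genes gave the largest share of DEGs of any list examined. Lists and members were chosen with earlier results of these data known, so neither this rank nor the comparison with the background is independent evidence. Of 20 genes of white cells and inflammation, 11 were higher DEGs and 0 were lower, against a background of 2.04% higher (0 of the 20 were lower at an unadjusted p under 0.05 or by limma-voom), and 9 of the 11 were DEGs with and without replicate 2. Their median log2 difference was 1.4, and that of all genes was 0.03. The mmp9 gene encodes a secreted enzyme that cuts collagen and gelatin. Its normalized reads were 2589, 719.9, 2803 and 1974 in TBBPA replicates 1 to 4, against 68.9, 147, 101 and 77.1 in DMSO replicates 1 to 4, with a log2 difference of 4.24 ± 0.42 (SE, adjusted p = 1.01e-08). Every TBBPA library was above every DMSO library, which a rule of size that also named mmp9 required, with replicate 2 the lowest of the 4. The collagenases mmp13a and mmp13b were higher as well. mmp13b had 82.8, 17.7, 111 and 116 normalized reads in TBBPA libraries, against 2.30, 4.68, 1.02 and 1.83 in DMSO libraries (4.39, SE 0.63, adjusted p = 7.96e-06, and 5.00 without replicate 2). For mmp13a the TBBPA libraries had 781, 149, 156 and 225 and the DMSO libraries 23.0, 28.7, 38.7 and 22.0 (3.16, SE 0.54, adjusted p = 1.23e-04). These are paralogs, and how reads were shared between them is uncertain.

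The cytokine il1b, an early signal of inflammation, had 292, 60.98, 85.4 and 183 normalized reads in TBBPA libraries, against 4.59, 5.34, 13.2 and 10.1 in DMSO libraries (3.91, SE 0.61, adjusted p = 2.69e-05). The chemokine cxcl18b, which draws neutrophils in zebrafish, had 68.3, 45.2, 54.2 and 60.2 normalized reads in TBBPA libraries and 3.06, 2.00, 6.10 and 4.59 in DMSO libraries (3.61, SE 0.58, adjusted p = 4.52e-05). Both genes were higher in 4 of 4 TBBPA libraries, which the rule of size that also named them required, with il1b varying over a wider range than cxcl18b. The feedback inhibitors of cytokine signaling socs3a and socs3b averaged 519 ± 228 and 840.0 ± 252 normalized reads in TBBPA libraries, against 76.6 ± 15.1 and 220.1 ± 32.1 in DMSO libraries (SD, n = 4 each). Their log2 differences were 2.67 (adjusted p = 1.01e-08) and 1.89 (adjusted p = 1.10e-07). The complement genes cfb and c3a.1 rose less, by log2 differences of 1.49 (adjusted p = 6.55e-06) and 1.16 (adjusted p = 1.35e-06). The AP-1 subunits junba (1.65, adjusted p = 6.79e-05) and junbb (2.25, adjusted p = 1.68e-05) completed the 9. The AP-1 subunit fosab and the NF-κB inhibitor nfkbiaa were DEGs in the 4 libraries (1.68 and 1.32) and were not without replicate 2 (1.26 and 0.93, adjusted p = 0.0596 and 0.141). stat3, the transcription factor upstream of socs3a, had a log2 difference of 0.87 (adjusted p = 1.72e-04), or 1.12 without replicate 2. Genes that mark white cells themselves gave smaller values: mpx, the neutrophil peroxidase, averaged 926 ± 301 in TBBPA and 717 ± 149 in DMSO libraries, a log2 difference of 0.32 ± 0.20 with a 95% interval of -0.08 to 0.72 (adjusted p = 0.325). The log2 differences of the pan-leukocyte gene lcp1 and the macrophage genes marco and csf1ra were 0.56 (adjusted p = 0.294), 0.86 (adjusted p = 0.101) and -0.26 (adjusted p = 0.492).

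The highest fold against DMSO among the genes picked by a fixed rule of size belonged to mxf, a gene of the Mx family of GTPases, whose members are known to be induced by interferon. It had 81.8, 37.4, 74.4 and 64.5 normalized reads in TBBPA libraries, against 0, 0.668, 1.02 and 0 in DMSO libraries (5.54, SE 0.63, adjusted p = 1.32e-07). The membrane gene ms4a17a.4 had 82.8, 96.4, 83.5 and 90.3 in TBBPA libraries and 0, 6.01, 1.02 and 0.918 in DMSO libraries (5.29, SE 0.59, adjusted p = 8.16e-08). Both were nearly silent in DMSO and present in every TBBPA library, so their folds depend on the pseudocount. The same rule also named tcap, the sarcomere protein telethonin (4.21, adjusted p = 5.42e-08), the Polycomb gene cbx7a (3.56, adjusted p = 3.88e-07) and cart3, a gene of the CART neuropeptide family (3.33, adjusted p = 2.46e-07). The cart3 libraries were uneven, with 167, 698, 203 and 137 normalized reads in TBBPA libraries against 17.6, 27.4, 25.4 and 22.0 in DMSO libraries, and the log2 difference without replicate 2 was 2.82.

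**Figure D2:**
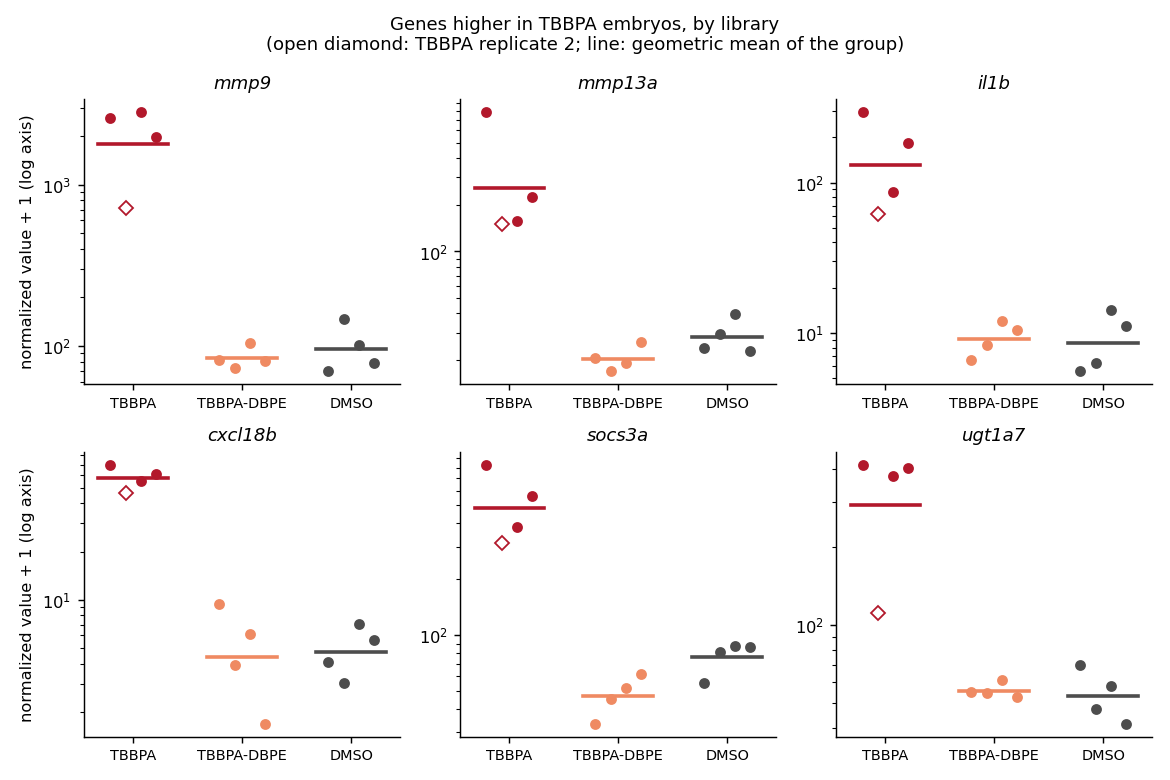
Normalized reads + 1 (log axis) of mmp9, mmp13a, il1b, cxcl18b, socs3a and ugt1a7, with 1 point per library for TBBPA, TBBPA-DBPE and DMSO, an open diamond for TBBPA replicate 2 and a line at the geometric mean of each group. Every TBBPA point lies above every TBBPA-DBPE and DMSO point, and replicate 2 is the lowest TBBPA point in all 6 panels. The rules of size required this separation from DMSO for mmp9, mmp13a, il1b and cxcl18b, and from TBBPA-DBPE for mmp9 and il1b. Of all genes, 4.46% lay above DMSO and 10.7% above TBBPA-DBPE in this way.

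Genes of chemical defence rose in part. Of 28 genes of the Nrf2 and glutathione response 3 were higher DEGs and 0 were lower DEGs (9 and 0 by adjusted p alone, 16 and 0 by unadjusted p, 7 and 0 by adjusted p in limma-voom), against backgrounds of 2.04% higher DEGs and 3.53% higher by adjusted p. Heme oxygenase hmox1a had 854, 974, 522 and 679.7 normalized reads in TBBPA libraries and 123, 195, 245 and 214 in DMSO libraries (1.96, SE 0.23, adjusted p = 2.24e-07). The glutathione transferase gstp1.1, a near-identical neighbour of gstp1.2, averaged 81.3 ± 29.7 in TBBPA and 14.1 ± 6.76 in DMSO libraries (2.47, adjusted p = 1.46e-04), and the Nrf2 paralog nfe2l2b had a log2 difference of 1.25 (adjusted p = 0.00961). Among 24 genes of phase II conjugation, which couple sugars or sulfate to foreign compounds, 3 were higher DEGs, against the same 2.04%: ugt1a7, ugt2b1 and sult5a1. The glucuronosyltransferase ugt1a7 had 414, 110.2, 376 and 405 normalized reads in TBBPA libraries, against 68.9, 46.1, 57.0 and 40.4 in DMSO libraries (2.45, SE 0.30, adjusted p = 3.32e-07). Of 20 cytochrome P450 and related genes 2 were higher DEGs with and without replicate 2 (background 1.19%), cyp3a65 (2.1, adjusted p = 1.17e-04) and cyp2k18 (1.14, adjusted p = 0.0293). Of 13 genes of the aryl hydrocarbon receptor, 1 was a higher DEG with all 4 libraries (background 2.04%) and not without replicate 2. A lower DEG in both fits was foxq1a (-1.03, adjusted p = 0.0142, background 0.975%), and 2 genes were lower by adjusted p in both fits (background 2.39%). The best known target of the receptor, cyp1a, averaged 101 ± 7.01 in TBBPA and 80.4 ± 12.95 in DMSO libraries, a log2 difference of 0.34 ± 0.27 (adjusted p = 0.453).

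Stress and hormone lists held fewer DEGs than the inflammation list. In the integrated stress response, 4 of 32 genes were higher DEGs, against a background of 2.04%, and atf3 (1.27, adjusted p = 0.00542), sesn2 (1.61, adjusted p = 5.66e-05) and cebpb (1.45, adjusted p = 8.75e-04) were DEGs in both fits. The transcription factor atf3 had 548, 90.5, 327 and 354 normalized reads in TBBPA libraries and 107, 93.5, 136 and 124 in DMSO libraries, where replicate 2 lay below every DMSO library and its log2 difference without that library was 1.80. Among 17 glucocorticoid response genes, fkbp5 and the glucose-6-phosphatase gene g6pc1a.1 (1.15, adjusted p = 5.57e-05) were higher DEGs, against the same 2.04%. The fkbp5 gene, a co-chaperone of the glucocorticoid receptor and a target of it, had 762, 228, 465 and 374 normalized reads in TBBPA libraries, against 58.9, 62.1, 115 and 55.05 in DMSO libraries (2.57, SE 0.38, adjusted p = 1.27e-05). Of 31 genes of the thyroid hormone axis 0 were higher DEGs (1 by adjusted p, 6 by unadjusted p, 0 DEGs by limma-voom). On the lower side 2 were DEGs, both also without replicate 2 (backgrounds 1.87% and 0.975%) and 2 by limma-voom. By adjusted p 3 were lower in both fits (background 2.39%). The deiodinase dio3b, which inactivates thyroid hormone, averaged 1342 ± 322 in TBBPA and 702 ± 188 in DMSO libraries, a log2 difference of 0.95 (adjusted p = 0.00224), just under the size threshold, and of 1.03 without replicate 2, just over it. The thyrotropin-releasing hormone gene trh was a lower DEG (-1.3, adjusted p = 0.00716). Of 40 genes of PPAR signaling and lipid use, 3 were higher and 3 lower by adjusted p, against backgrounds of 3.53% and 4.65%, and the fatty acid carrier cd36 (-1.15, adjusted p = 0.00301) was the strongest of the lower genes. In cholesterol synthesis, 5 of 25 genes were higher by adjusted p, against a background of 3.53%, and the rate-limiting enzyme hmgcra was a DEG (1.11, adjusted p = 0.00817). Of 16 genes of the unfolded protein response and 23 of heart muscle, 0 passed an adjusted p of 0.05 in either direction. At an unadjusted p the heart list had 3 higher and 1 lower, the unfolded protein list 0 higher and 1 lower, and limma-voom also called 0 in each.

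Ribosomal protein genes rested on replicate 2: 7 of 76 were higher DEGs with it (background 2.04%) and 0 without it (background 1.70%). With all 4 libraries 55 were higher at an unadjusted p, where 5128 of 21854 genes passed in either direction. By limma-voom 3 were higher DEGs, among 320 of all genes. Ribosomal protein genes are not counted as changed here. Among red cell genes the embryonic globin hbbe3 was a DEG with and without it (log2 differences of 1.81 and 1.35), and hbae1.1, at 88.5, 692, 151 and 119 normalized reads in TBBPA libraries and 35.2, 97.5, 115 and 104 in DMSO libraries, was not (adjusted p = 0.206). The globin genes are close paralogs whose reads may be shared unevenly.

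Genes of the retina formed the list with the most lower DEGs, among lists chosen with earlier results of these data known. Of 23 photoreceptor and retina genes 8 were lower DEGs, against a background of 1.87%, and 7 of them were DEGs with and without replicate 2: rho, opn1sw1, crx, otx5, gnat1, sagb and gng13b. The median of the list was -1.03. 0 of the 23 were higher, also at an unadjusted p and by limma-voom, which called 7 lower DEGs. The transcription factor crx, which switches on photoreceptor genes, had 615, 519, 697 and 594 normalized reads in TBBPA libraries, against 1498, 1604, 1844 and 1871 in DMSO libraries (-1.49, SE 0.22, adjusted p = 1.38e-05). Its TBBPA libraries all lay well below the lowest DMSO library, and replicate 2 was the lowest of the 4. The rod opsin rho had 0, 3.93, 4.59 and 0 normalized reads in TBBPA libraries and 73.5, 32.1, 18.3 and 31.2 in DMSO libraries (-3.94, SE 0.64, adjusted p = 4.81e-05). The ultraviolet cone opsin opn1sw1 had 0, 11.8, 2.75 and 0 in TBBPA libraries, against 15.3, 31.4, 28.5 and 39.5 in DMSO libraries (-3.42, SE 0.73, adjusted p = 0.00173, and -4.18 without replicate 2). Both opsins were near the detection limit in TBBPA embryos. The G protein subunit gng13b averaged 210.5 ± 37.4 normalized reads in TBBPA and 787 ± 139 in DMSO libraries (-1.90, adjusted p = 9.10e-08).

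Further retinal genes came from the rule of size. gnb3a, a G protein beta subunit of cones, had 5.77, 13.8, 7.34 and 6.02 normalized reads in TBBPA libraries, against 95.7, 80.8, 101 and 159 in DMSO libraries (-3.60, SE 0.50, adjusted p = 4.96e-06). The opsin opn6a had 11.5, 0, 28.5 and 26.7 in TBBPA libraries and 133, 123, 118 and 149 in DMSO libraries, and its 0 in replicate 2 moved the log2 difference, which was -3.71 ± 0.51 with that library and -2.60 without it. rs1a, which encodes the retinal adhesion protein retinoschisin, had 8.66, 64.9, 4.59 and 8.60 in TBBPA libraries and 145, 114, 113 and 123 in DMSO libraries (-3.19, SE 0.47, adjusted p = 1.27e-05). Here replicate 2 was the high one of the 4, and without it the log2 difference was -3.95. Lens crystallins, also expressed in the eye, held fewer calls: 1 of 21 was lower by adjusted p and 0 were DEGs (2 lower at an unadjusted p, 0 by limma-voom). Their median log2 difference was -0.01 with all 4 libraries and -0.37 without replicate 2, against 0.03 for all genes in each fit.

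Skeletal and fin fold matrix genes were lower as well. The fin fold gene and2 encodes an actinodin, a structural protein of the actinotrichia. It had 895, 903, 849 and 815 normalized reads in TBBPA libraries, against 5917, 3562, 4218 and 4732 in DMSO libraries (-2.39, SE 0.17, adjusted p = 1.34e-12), and its paralog and4 averaged 26.4 ± 11.5 in TBBPA and 132 ± 45.0 in DMSO libraries (-2.32, adjusted p = 5.86e-08). The TBBPA libraries spanned a narrow range for and2 and were all below the lowest DMSO library, which a rule of size that also named and2 required. The cartilage matrix gene matn1 had 20.2, 17.7, 14.7 and 13.8 normalized reads in TBBPA libraries and 242, 164, 124 and 185 in DMSO libraries (-3.33, SE 0.27, adjusted p = 5.29e-11). The cartilage proteoglycan acana averaged 177 ± 30.3 in TBBPA and 419.9 ± 20.8 in DMSO libraries (-1.26, adjusted p = 4.81e-06). Of 30 cartilage, bone and matrix genes, matn1 and acana were the lower DEGs, while 13 were lower by adjusted p, against a background of 4.65%, and 7 were so with and without replicate 2 (background 2.39%), at smaller sizes such as col9a1a (-0.95), col1a1b (-0.67) and matn4 (-0.62). DMSO means of col9a1a, col1a1b and matn4 were also above those of all 9 other chemicals. Against the mean of 9 these genes were at -0.46, 0.02 and -0.26. In that comparison 8 of the 30 were lower by adjusted p (background 12.5%), 5 of them in both fits (background 4.26%). The 3 higher DEGs of that list were the proteases mmp9 and mmp13a and the protease inhibitor timp2b (2.08, adjusted p = 4.80e-05). The metalloproteinase mmp2 was lower by adjusted p with all 4 libraries (-0.52, adjusted p = 0.0284) and not without replicate 2 (-0.25, adjusted p = 0.236), and mmp14a was at -0.18 (adjusted p = 0.439). In connective tissue, tenascin tnxba had 13.5, 21.6, 19.3 and 11.2 in TBBPA libraries, against 119, 119.6, 73.2 and 100.0 in DMSO libraries (-2.60, SE 0.34, adjusted p = 1.57e-06). The tendon marker tnmd (-2.93, adjusted p = 5.57e-05, and -1.94 without replicate 2, which had 0 reads) and the fast troponin tnni2a.2 (-2.69, adjusted p = 1.43e-06) were also named by size, a rule that required no overlap with DMSO.

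Some genes of myelin and neurons were also lower. Of 16 genes of glia and myelin, mbpa and olig1 were lower DEGs in both fits, against a background of 0.975%, the astroglial gene gfap was lower by adjusted p (-0.69, adjusted p = 0.0111, and 0.0785 without replicate 2), 0 were higher (1 at an unadjusted p, 0 DEGs by limma-voom), and the median was -0.12. mbpa, which encodes myelin basic protein, had 0 reads in all 4 TBBPA libraries and 2.30, 12.7, 5.09 and 9.18 normalized reads in DMSO libraries, which makes it at least 9.26-fold lower on a floor of 3 reads over the TBBPA group. The myelin adhesion gene mag had 21.2, 0, 13.8 and 13.8 normalized reads in TBBPA libraries, against 108, 92.8, 89.5 and 86.2 in DMSO libraries, with a log2 difference of -3.51 with replicate 2 and -2.49 without it. The oligodendrocyte lineage factor olig1 had 5.77, 21.6, 15.6 and 17.2 in TBBPA libraries and 60.5, 63.5, 55.9 and 51.4 in DMSO libraries (-2.00, SE 0.39, adjusted p = 6.89e-04). Of 34 neuronal and synaptic genes 12 were lower by adjusted p, 9 of them with and without replicate 2, against backgrounds of 4.65% and 2.39%, and 0 were higher (0 at an unadjusted p, 0 by limma-voom). Most were small: the median of the list was -0.42, and the transcription factor neurod2 was the DEG (-1.81, adjusted p = 8.08e-05). The pan-neuronal gene elavl3, encoding an RNA-binding protein, averaged 21049 ± 4623 in TBBPA and 22392 ± 715 in DMSO libraries (log2 difference -0.12 ± 0.17, 95% interval -0.46 to 0.22, adjusted p = 0.709). otos, the gene of otospiralin, known from the inner ear of mammals, averaged 10.8 ± 3.79 in TBBPA and 93.9 ± 4.70 in DMSO libraries (-3.08, adjusted p = 9.16e-07). The precursor gene mir181b-2 was also named (-2.51, adjusted p = 3.04e-04, and -1.86 without replicate 2), but a polyA-selected library of long RNA does not measure the mature miRNA.

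**Figure D3:**
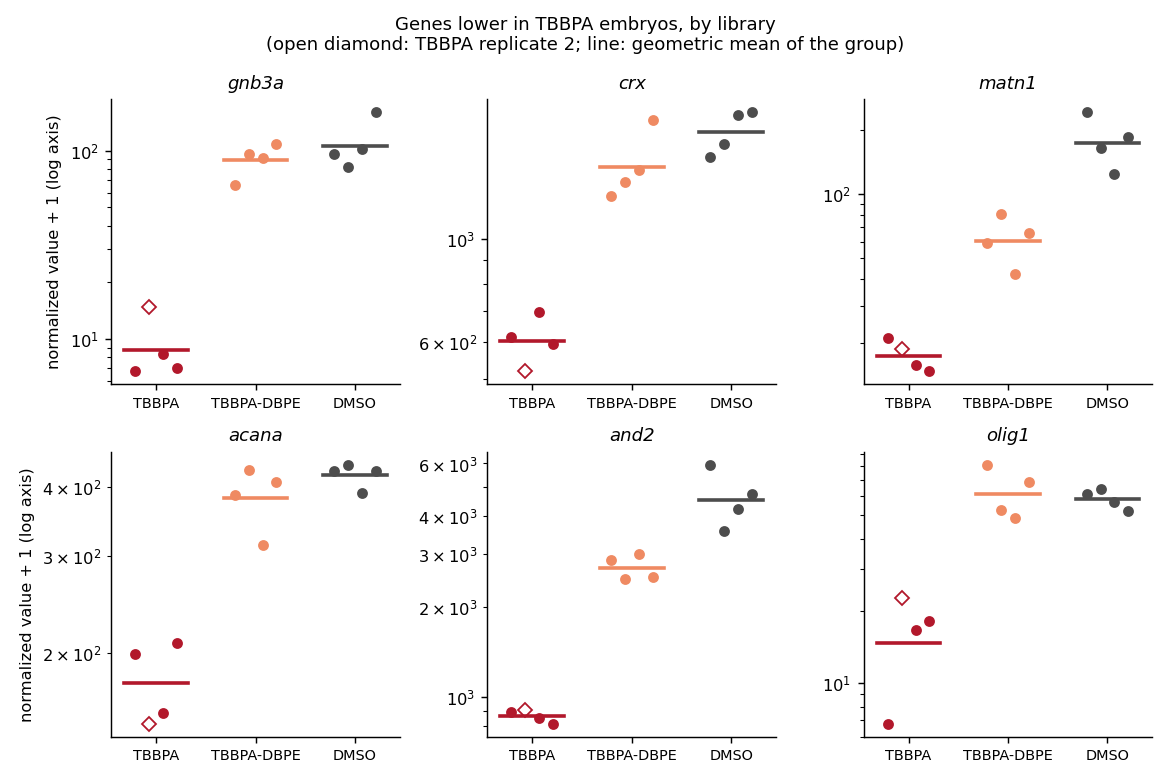
Normalized reads + 1 (log axis) of gnb3a, crx, matn1, acana, and2 and olig1, with 1 point per library for TBBPA, TBBPA-DBPE and DMSO, an open diamond for TBBPA replicate 2 and a line at the geometric mean of each group. TBBPA points lie below all TBBPA-DBPE and DMSO points in each panel, and for matn1 and and2 the TBBPA-DBPE points lie between those of TBBPA and DMSO. The rules of size required the separation from DMSO for gnb3a, matn1 and and2, and from TBBPA-DBPE for gnb3a and olig1. Of all genes, 5.25% lay below DMSO and 10.2% below TBBPA-DBPE in this way.

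**Figure D4:**
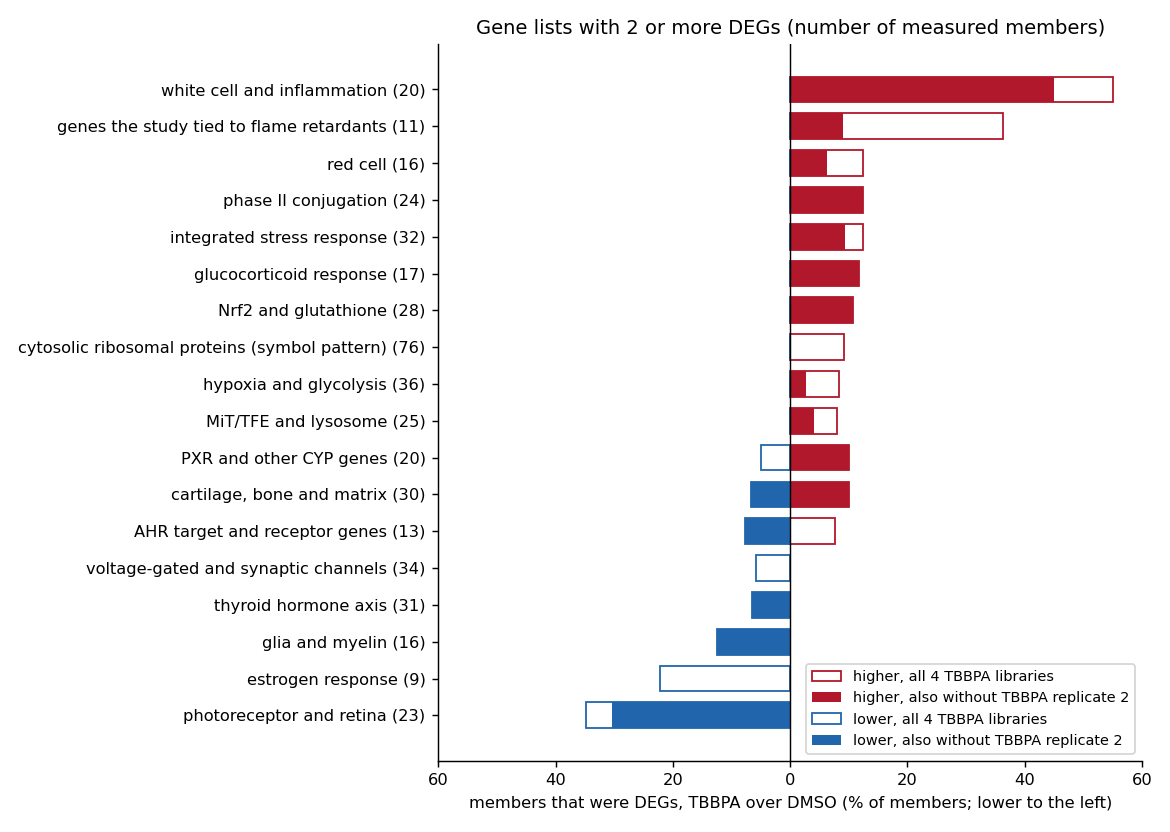
Share of the measured members of each list (%) that were DEGs in TBBPA over DMSO, higher to the right and lower to the left, for lists with 2 or more DEGs. Open bars are DEGs with all 4 TBBPA libraries and filled bars those that were also DEGs without replicate 2. The inflammation list has the longest bar on the higher side (11 of 20) and the photoreceptor list on the lower side (8 of 23), whereas the bar of ribosomal proteins (7 of 76) is not filled.

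Against the mean of the other 9 chemicals, which involves no DMSO library, TBBPA was higher in inflammatory genes and lower in the myelin genes mbpa and mag and the fin fold genes and2 and and4, whereas low levels of retinal genes also occurred in some of the 9. The means of the Mx gene mxf, the collagenase mmp13b and fkbp5 were above those of every other chemical, and the means of and2 and tnxba were below them. Of all genes, 1275 (5.83%) were DEGs, 583 higher (2.67%) and 692 lower (3.17%). The split depended on the libraries and scale: there were 833 DEGs without TBBPA replicate 2 (3.81%, with 278 higher, 1.27%, and 555 lower, 2.54%), 1929 without replicate 1, and 647, of which 64.1% were higher, on the deposited log2 scale, which shrinks low values, against 45.7% higher on the log2(normalized reads + 1) scale. In both fits, with and without replicate 2, 477 genes were DEGs (2.18%, with 202 higher, 0.924%, and 275 lower, 1.26%). TBBPA libraries did not overlap any of the other 35 libraries in 0.206% of genes, 27 above (0.124%) and 18 below (0.0824%). DEGs in the same direction against both DMSO and the mean of 9, which share the TBBPA libraries, numbered 206 higher (0.943%) and 221 lower (1.01%), or 134 (0.613%) and 93 (0.426%) when the rule also had to hold without replicate 2.

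The mxf gene averaged 64.5 normalized reads in TBBPA, and the means of the other 9 chemicals were 0.610 (TPP) to 3.61 (IPP), with all 35 single libraries between 0 and 9.41 (4.82, SE 0.47, adjusted p = 4.12e-09). mmp13b averaged 81.9 in TBBPA, against 1.31 (BDE-47) to 8.93 (TDBPP) across the 9 (4.14, SE 0.47, adjusted p = 8.26e-08, and 4.76 without replicate 2). Both genes were named by a rule that required TBBPA libraries above all 35 others, so their lack of overlap is not further evidence. Other inflammatory genes were shared with some chemicals. mmp9 averaged 2021 in TBBPA, 1134 in TDBPP and 1096 in IPP, and 78.0 to 123 in the other 7 (3.57, SE 0.31, adjusted p = 4.19e-10). il1b averaged 155 in TBBPA and 107 in IPP, and 6.32 to 15.6 in the other 8 (3.44, SE 0.45, adjusted p = 1.53e-06). For other inflammatory genes TBBPA did not have the highest mean. socs3a averaged 519 in TBBPA, 675 in TDBPP and 641 in IPP. cxcl18b averaged 57.0 in TBBPA, 69.4 in IPP and 54.8 in TDBPP, and mmp13a averaged 328 in TBBPA, 568 in IPP and 91.6 in TDBPP. In IPP replicates 1 to 4, cxcl18b had 50.5, 43.3, 17.8 and 166 normalized reads and mmp13a 237, 88.9, 115 and 1829. The IPP means of both genes thus rested largely on replicate 4, which was also the highest IPP library for il1b (99.3, 10.3, 20.5 and 300). Of the 20 inflammation genes 13 were higher DEGs against the mean of 9, 12 of them with and without replicate 2, against backgrounds of 2.67% and 0.924%. Among the 12 was the cytokine tnfb (1.81, adjusted p = 0.00236), and csf1ra, the macrophage growth factor receptor, was lower by adjusted p (-0.76, adjusted p = 0.00136). fkbp5 averaged 457 in TBBPA, and its next levels were 208 in BDE-47, 202 in TCEP and 152 in TDBPP (3.18, SE 0.28, adjusted p = 4.37e-10).

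The rule of size named 10 genes above all 35 libraries, mxf and mmp13b among them. The chemokine ccl34a.4 had 124, 136, 110.2 and 94.6 normalized reads in TBBPA libraries, and the 35 others lay between 3.76 and 91.5, with a median of 20.5, and the log2 difference was 2.30 ± 0.31 (SE). The cathepsin ctsl.1, which has near-identical paralogs, was at 2.25, the olfactomedin family gene olmf4l1 at 1.95, the transcription factor ets2 at 1.45, the ribonuclease gene rnasel3 at 1.26, the fatty acid transporter slc27a2a at 1.21 and the globin hbbe3 at 1.56. The last, enpp2l, had 1146, 6259, 1125 and 1498 in TBBPA libraries, and its log2 difference was 1.04 with replicate 2 and 0.46 without it, under the size threshold. Of 16 red cell genes 11 were higher by adjusted p, against a background of 12.9%, and 6 were DEGs, 3 of them in both fits (backgrounds 2.67% and 0.924%). The acute phase gene crp3, a C-reactive protein gene, had 33.7, 171, 22.0 and 11.2 in TBBPA libraries, with replicate 2 far above the rest. It was higher than the mean of 9 with and without replicate 2 (3.00 and 2.25), and against DMSO its adjusted p was 0.00948 with it and 0.0851 without it. irg1l, a homolog of the gene of the itaconate-producing enzyme, averaged 834 in TBBPA, against 49.0 (TiBP) to 671 (TDBPP) across the 9 (2.69, SE 0.25, adjusted p = 9.71e-10).

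Below all 35 libraries lay 4 genes with a mean of at least 50 in the other chemicals: tnxba, and2, pkd1l2a and pkd2l1. and2 averaged 865 in TBBPA, against 1811 (TiBP) to 4116 (TPP) across the 9 (-1.66, SE 0.13, adjusted p = 1.23e-11). tnxba averaged 16.4, against 31.7 (IPP) to 123 (BDE-47) (-2.04, SE 0.25, adjusted p = 5.51e-07). pkd2l1 and pkd1l2a belong to the polycystin family, and pkd2l1 marks the neurons that contact cerebrospinal fluid. pkd1l2a had 149, 120.0, 98.2 and 133 normalized reads in TBBPA libraries, and the 35 others lay between 155 and 441, with a median of 295, and the log2 difference was -1.22 ± 0.14 (SE). pkd2l1 had 152, 59.0, 126 and 148, and the 35 others lay between 176 and 336, with a median of 231, and the log2 difference was -1.01 ± 0.14 (SE), or -0.70 without replicate 2. The brush border gene vil1, encoding villin, averaged 46.2 in TBBPA, against 75.7 (TDBPP) to 195 (TCEP) (-1.57, SE 0.17, adjusted p = 3.98e-08). and4 and otos were likewise below all 9 means (-1.59 and -2.04), as was mag (-2.75, and -1.73 without replicate 2).

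Some lower genes were low in other chemicals too. gnb3a averaged 8.23 in TBBPA, 12.6 in TiBP, 15.3 in IPP and 16.1 in TDBPP, and 82.9 to 137 in the other 6, with 109 in DMSO. crx averaged 606 in TBBPA, 399 in TiBP, 479 in TDBPP and 612 in IPP, and 1442 to 1795 in the other 6, with 1704 in DMSO. matn1 averaged 16.6 in TBBPA, 13.3 in IPP, 21.4 in TiBP and 31.8 in TDBPP, and 60.8 to 189 in the other 6, with 179 in DMSO. acana averaged 177 in TBBPA, 163 in TDBPP, 176 in IPP and 253 in TiBP, and 350 to 482 in the other 6, with 420 in DMSO. olig1 had 18.8, 2.54, 11.5 and 29.3 normalized reads in TDBPP libraries, and 20.8 to 100 in single libraries of the remaining chemicals. In this comparison 4 of the 23 photoreceptor genes were lower DEGs (background 3.17%), and rho (-2.16), opn1sw1 (-1.98, and -2.75 without replicate 2) and gng13b (-1.03) were so in both fits (background 1.26%). Of the 31 thyroid axis genes 5 were lower DEGs, against a background of 3.17%, and in both fits mbpa (-2.58), which is also a myelin gene, and the thyroid peroxidase gene tpo (-1.20, adjusted p = 0.0265). klf9, which responds to thyroid hormone as well as to glucocorticoids, was the higher DEG (1.72, adjusted p = 0.00261).

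A separate group was low in TBBPA against the 9 chemicals while its level was nearer to DMSO. frem3, a basement membrane gene, averaged 77.7 ± 36.8 normalized reads in TBBPA, against 182 (TPP) to 447 (TDBPP) in the 9 chemicals and 38.9 ± 5.25 in DMSO. Its log2 difference was -1.80 ± 0.35 (SE, adjusted p = 4.38e-04) against the mean of 9 and 0.86 (adjusted p = 0.264) against DMSO. purab averaged 70.6 in TBBPA, 171 (TBPH) to 308 (TiBP) in the 9 and 42.01 in DMSO. mxra5b averaged 37.4 in TBBPA, 117 (TPP) to 285 (BDE-47) in the 9 and 19.7 in DMSO. For purab, frem3 and mxra5b the adjusted p against DMSO was 0.437, 0.264 and 0.810, so no difference from DMSO was detectable for them. The helicase gene ddx23 was also named below the 9 means (-2.02, adjusted p = 0.00300), with DMSO libraries spread over 9.19, 30.1, 95.6 and 36.7. tfe3a, a transcription factor of lysosome genes, was a DEG against both references but in opposite directions, with 193, 136, 49.6 and 64.5 normalized reads in TBBPA libraries, 125 (TBPH) to 774 (TiBP) in the 9 and 12.2, 40.7, 25.4 and 16.5 in DMSO libraries (log2 differences of -1.41, adjusted p = 0.00641 against the 9 and 2.11, adjusted p = 0.00526 against DMSO). It belongs to 11 genes that the study tied to flame retardants. Of these, 4 were higher DEGs against DMSO (background 2.04%) and only tfe3a was in both fits (background 1.19%). By adjusted p 5 were higher and 3 lower (backgrounds 3.53% and 4.65%), and 3 of each were so in both fits. Since the study chose the list on these samples, its direction is not independent evidence. Of 34 voltage-gated and synaptic channel genes, 21 were lower by adjusted p against the mean of 9, with a background of 12.5%, and 16 were so with and without replicate 2 (background 4.26%). Against DMSO 4 of the same 34 were lower by adjusted p, and the NMDA receptor subunit grin1b (-1.06, adjusted p = 9.58e-06) and the GABA receptor subunit gabra6a (-1.93, adjusted p = 0.0479) were DEGs with all 4 libraries and not without replicate 2.

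**Figure D5:**
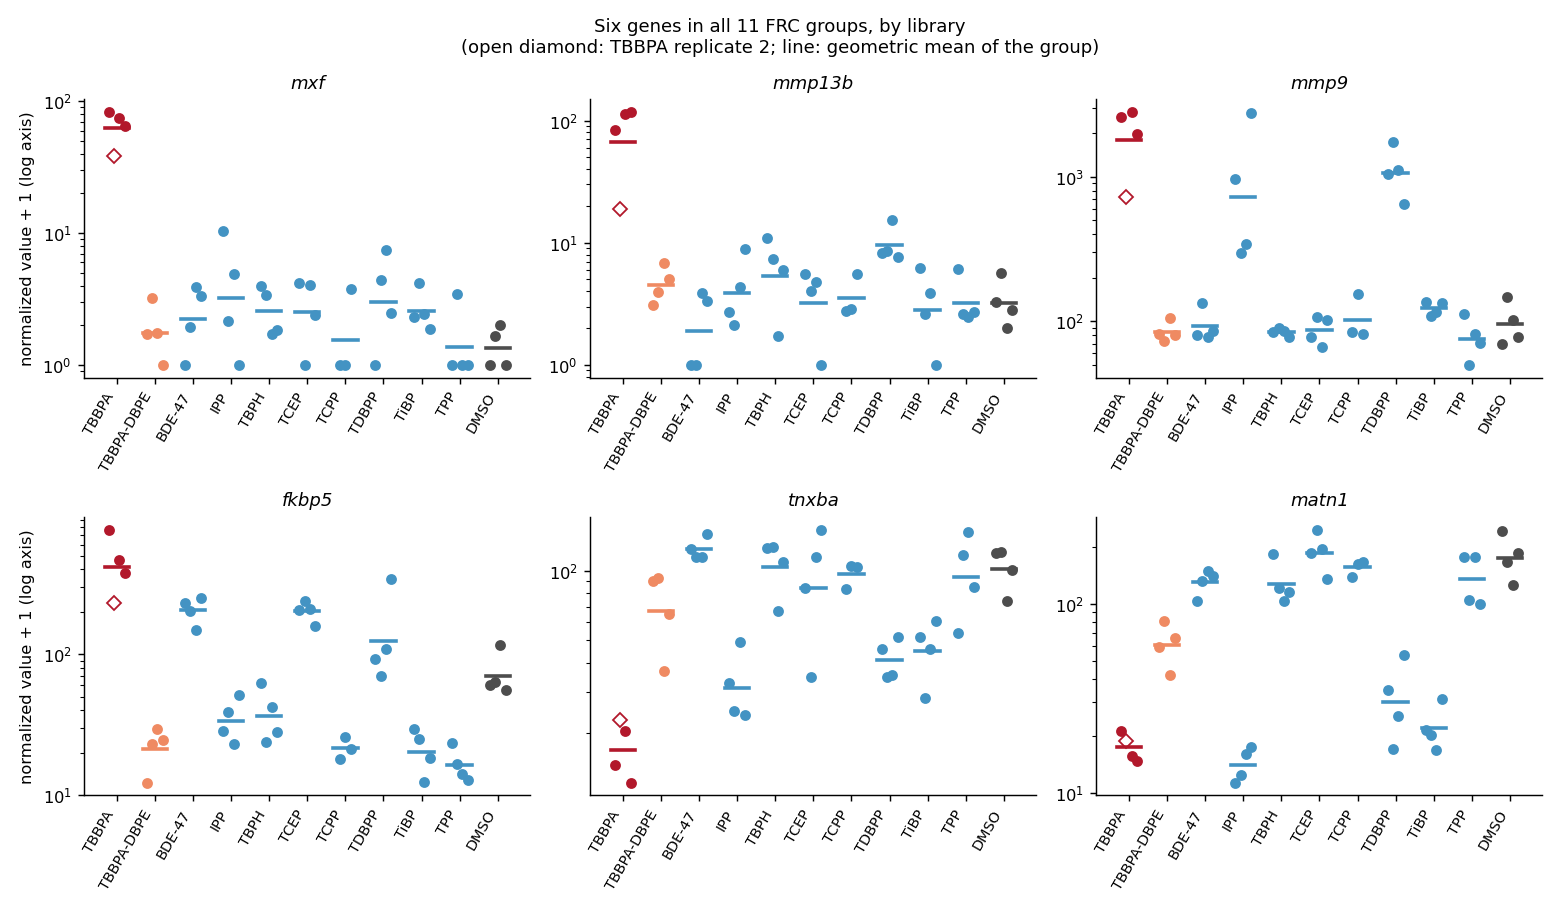
Normalized reads + 1 (log axis) of mxf, mmp13b, mmp9, fkbp5, tnxba and matn1 in all 11 FRC-tagged groups, with 1 point per library, an open diamond for TBBPA replicate 2 and a line at the geometric mean of each group. TBBPA has the highest mean for mxf, mmp13b, mmp9 and fkbp5, with TDBPP and IPP next for mmp9, and the lowest for tnxba, while matn1 is also low in IPP, TiBP and TDBPP.

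TBBPA and TBBPA-DBPE, compared at the same nominal 4 µM, differ in the dibromopropyl ether caps on the phenol hydroxyls. They were the only related pair compared, so p-values are adjusted over genes alone. TBBPA embryos were higher in inflammation, oxidative stress and fkbp5, and lower in retinal genes and in the glial genes mbpa and olig1. Channel genes were also lower than in TBBPA-DBPE, while few of them differed from DMSO. Of all genes 1974 (9.03%) were DEGs, 1104 higher (5.05%) and 870 lower (3.98%). Without TBBPA replicate 2 there were 1309 (5.99%, with 605 higher, 2.77%, and 704 lower, 3.22%), 876 genes were DEGs in both fits (4.01%, with 471 higher, 2.16%, and 405 lower, 1.85%), and a fit to the 8 libraries alone gave 510. The 4 TBBPA and 4 TBBPA-DBPE libraries did not overlap in 20.8% of all genes (2328 above, 10.7%, and 2221 below, 10.2%), so separation by itself is common here.

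mmp9 averaged 2021 ± 936 normalized reads in TBBPA libraries, against 80.6, 72.3, 103 and 79.4 in the 4 TBBPA-DBPE libraries (4.41, SE 0.42, adjusted p = 2.44e-09). The difference of TBBPA-DBPE from DMSO for mmp9 was -0.18, with a 95% interval of -1.03 to 0.67. il1b averaged 155 ± 105 in TBBPA libraries, against 5.61, 7.30, 11 and 9.50 in TBBPA-DBPE libraries (TBBPA over TBBPA-DBPE 3.84, SE 0.61, adjusted p = 2.80e-05, TBBPA-DBPE over DMSO 0.08, interval -1.15 to 1.3). mxf averaged 64.5 ± 19.4 in TBBPA, against 0.701, 2.19, 0.733 and 0 in TBBPA-DBPE libraries (5.17, SE 0.63, adjusted p = 3.86e-07). The rule of size that named these genes required every TBBPA library above every TBBPA-DBPE library, so their separation is not further evidence. Of the 20 inflammation genes 15 were higher DEGs, 14 of them in both fits, against backgrounds of 5.05% and 2.16%. These included the macrophage gene marco (1.21, adjusted p = 0.00778) and the lysozyme gene lyz (2.08, adjusted p = 0.00330), a DEG without replicate 2 as well (1.21). ugt1a7 averaged 326 ± 145 in TBBPA, against 54.0, 53.3, 60.1 and 51.6 in TBBPA-DBPE libraries (2.38, SE 0.30, adjusted p = 4.65e-07). hmox1a averaged 757 ± 198 in TBBPA, against 196, 164, 286 and 195 in TBBPA-DBPE libraries (1.84, SE 0.23, adjusted p = 5.78e-07). Of 28 Nrf2 genes 8 were higher DEGs, 7 in both fits, and of 32 stress response genes 8, with 5 in both fits (backgrounds 5.05% and 2.16%). Each list also had 1 lower DEG, txnrd2.2, which was lost without replicate 2, and the amino acid transporter gene slc7a5, which was kept. cbx7a (4.08) and tcap (4.40) were named here as they were against DMSO.

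For fkbp5 the TBBPA-DBPE libraries were themselves below DMSO. So were all libraries of TPP (11.8 to 22.5 normalized reads), TiBP (11.5 to 28.3), TCPP (16.9 to 25.0) and IPP (22.2 to 50.3). All BDE-47 and TCEP libraries were above DMSO (147 to 251 and 159 to 237), and TBPH and TDBPP overlapped it. A level below DMSO was thus not particular to TBBPA-DBPE. fkbp5 averaged 457 ± 225 normalized reads in TBBPA libraries, against 11.2, 21.9, 28.6 and 23.8 in TBBPA-DBPE libraries (4.30, SE 0.38, adjusted p = 4.74e-10), and TBBPA-DBPE differed from DMSO by -1.73 (adjusted p = 0.00397). The transcription factor klf9, also a glucocorticoid target, had 38.5, 17.7, 26.6 and 18.9 in TBBPA, 1.402, 2.19, 5.13 and 1.36 in TBBPA-DBPE and 6.89, 12.7, 8.14 and 8.26 in DMSO libraries. TBBPA exceeded TBBPA-DBPE in klf9 by 2.96 (adjusted p = 1.96e-04), and its excess over DMSO, 1.37, did not pass the test (adjusted p = 0.113). Both genes therefore had their highest level in TBBPA, DMSO between, and TBBPA-DBPE lowest, while the neighbours klf9 in TBBPA and in DMSO were not separated by the test.

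On the lower side, crx averaged 606 ± 73.0 normalized reads in TBBPA libraries, against 1235, 1328, 1409 and 1798 in TBBPA-DBPE libraries (TBBPA over TBBPA-DBPE -1.24, SE 0.22, adjusted p = 1.39e-04, TBBPA-DBPE over DMSO -0.25, interval -0.70 to 0.20). gnb3a averaged 8.23 ± 3.76 in TBBPA, against 65.2, 94.9, 90.9 and 108 in TBBPA-DBPE libraries (-3.35, SE 0.50, adjusted p = 1.33e-05). olig1 averaged 15.1 ± 6.69 in TBBPA, against 79.9, 51.8, 47.7 and 67.9 in TBBPA-DBPE libraries (-2.07, SE 0.39, adjusted p = 2.91e-04), and TBBPA-DBPE differed from DMSO in olig1 by 0.07 (interval -0.72 to 0.86). A low level of olig1 was not particular to TBBPA, since TDBPP libraries had 2.54 to 29.3. mbpa, at 0 reads in TBBPA, averaged 6.28 in TBBPA-DBPE libraries and so was at least 7.95-fold lower in TBBPA. Of the 16 glia and myelin genes, mbpa and olig1 were the lower DEGs, against a background of 3.98%, 5 were lower and 2 higher by adjusted p (backgrounds 12.4% and 12.7%), and the higher ones were fabp7a (1.16, 0.50 without replicate 2), a DEG only with replicate 2, and the glutamate transporter slc1a3a (0.83). Named by size on this side were also cnrip1b, a cannabinoid receptor interacting protein gene (-2.32), the girdin family gene ccdc88aa (-2.25), prdm8a, a PR domain gene (-2.21), pax10, a Pax6-related gene (-2.14, and -1.44 without replicate 2), and ly6pge (-2.1). Of 34 channel genes 9 were lower DEGs, 6 in both fits (backgrounds 3.98% and 1.85%), and 22 were lower by adjusted p, with a background of 12.4%, 19 of them with and without replicate 2 (background 6.36%). The list median was -0.71 against TBBPA-DBPE and -0.16 against DMSO. Against DMSO 4 of the 34 were lower by adjusted p and 0 were DEGs in both fits. Among the 6 DEGs against TBBPA-DBPE were the calcium channels cacna1da (-1.12) and cacna1ea (-1.16), the potassium channel kcnq3 (-1.28) and the glutamate receptor subunit gria2b (-1.29). Of 23 photoreceptor genes 6 were lower DEGs, 5 in both fits (backgrounds 3.98% and 1.85%), and 1 was a higher DEG (background 5.05%), which was lost without replicate 2.

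The cartilage gene matn1 and the fin fold gene and2 were graded across the 3 groups. matn1 averaged 16.6 in TBBPA, 60.8 in TBBPA-DBPE and 179 in DMSO libraries. The log2 difference of TBBPA over TBBPA-DBPE was -1.79 ± 0.27 (SE, adjusted p = 1.82e-05), and that of TBBPA-DBPE over DMSO -1.54 (adjusted p = 9.82e-04). and2 averaged 865 in TBBPA, 2707 in TBBPA-DBPE and 4607 in DMSO libraries (-1.64, SE 0.17, adjusted p = 2.04e-08 for TBBPA over TBBPA-DBPE and -0.75, adjusted p = 0.00513 for TBBPA-DBPE over DMSO). For both genes each step passed the test. Levels below DMSO were not particular to the pair: the and2 means of all 9 chemicals lay below DMSO. matn1 was lower in IPP, TiBP and TDBPP (13.3, 21.4 and 31.8) than in TBBPA-DBPE. Other cartilage genes differed from this order: acana was lower in TBBPA than in TBBPA-DBPE (-1.12, adjusted p = 2.46e-05), with -0.14 for TBBPA-DBPE over DMSO (adjusted p = 0.643). col2a1a was lower than DMSO in TBBPA-DBPE (-0.99, adjusted p = 0.00471). In TBBPA it was lower than DMSO with all 4 libraries (-0.85, adjusted p = 0.0123) and did not pass without replicate 2 (-0.69, adjusted p = 0.0634).

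Other genes changed in TBBPA against DMSO with no detectable difference between the related pair. col1a1b, a bone and skin collagen, was -0.67 against DMSO in TBBPA and -0.80 in TBBPA-DBPE, and the difference between them was 0.13 (95% interval -0.17 to 0.43). Its DMSO mean of 37960 normalized reads was above the means of all 9 other chemicals, 19669 (IPP) to 28548 (TBPH). The cartilage genes col9a2 and matn4 differed between the pair by 0.14 (interval -0.15 to 0.42) and -0.02 (interval -0.29 to 0.25), and the cholesterol synthesis gene idi1 by -0.06 (interval -0.37 to 0.25). For col9a2 and matn4 DMSO was likewise above all 9 means (5901 against 2765 to 4643, and 13284 against 8751 to 11739). Levels below DMSO in col1a1b, col9a2 and matn4 were thus not particular to the pair. The neutrophil gene mpx, which had no detectable difference between TBBPA and DMSO either, differed between the pair by 0.02 (interval -0.37 to 0.42). These intervals limit a difference to about the stated bounds and do not show that the compounds act alike. In cholesterol synthesis as a whole 12 of 25 genes were higher in TBBPA than in TBBPA-DBPE by adjusted p, against a background of 12.7%, and 3 were DEGs (background 5.05%).

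Ribosomal and mitochondrial counts moved with replicate 2. Of 76 ribosomal protein genes, 64 were higher DEGs against TBBPA-DBPE with it (background 5.05%) and 17 without it (background 2.77%), with list medians of 1.64 and 0.78, and against the mean of 9 the counts were 49 and 0 (backgrounds 2.67% and 1.27%). Nuclear oxidative phosphorylation genes had 36 of 92 and 0 against TBBPA-DBPE, and 14 and 0 against the mean of 9, beside the same backgrounds. Of the liver, yolk and pancreas list, 10 of 26 genes were higher DEGs against TBBPA-DBPE and 6 in both fits (backgrounds 5.05% and 2.16%), with the fibrinogen genes fga (1.33, 1.15 without replicate 2) and fgb (1.64 and 1.36). Of the 16 whole-embryo markers 4 were higher DEGs against TBBPA-DBPE (background 5.05%): the muscle actin actc1b, the globin hbbe1.1, the pigment gene pmela and the yolk and liver gene apoa1b (1.26, 2.30, 1.03 and 1.27). Without replicate 2 the values were 0.71, 1.70, 1.04 and 0.87, and hbbe1.1 and pmela were still DEGs. The part of this shift in tissue markers in the other differences between the pair was not tested.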

How the data were processed

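RNA-seq was run on whole 48 hpf embryos. The authors extracted total RNA with RNAzol and DNase, selected polyA RNA, sequenced 100 bp reads on a HiSeq, aligned with STAR, counted with HTSeq and transformed with DESeq2 (GRCz11). The deposited values are log2 values of a variance stabilizing transformation over all 170 samples, with genes at 0 reads in at least 43 samples removed by the authors. Here the transformation was inverted to normalized values (reads divided by a size factor), and 100% came out as whole reads within 0.05. Total recovered reads ranged between 10957931 and 22152985 per FRC library, so precision is set by counting at low levels and by the spread of 4 libraries elsewhere.

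The test was limma 3.58.1 with trend (R 4.3.3), two-sided, on log2(normalized value + 1), without a filter on low values, in a fit of 11 groups over the 43 FRC-tagged libraries, with Benjamini-Hochberg adjustment over 21854 genes and SE from the fit. Groups came from the labels alone. The fit was tested on simulated data. The 9 chemical means had equal weight. Genes named by size are the 10 highest and 10 lowest DEGs with a descriptive symbol, a mean of at least 50 in the higher group and no overlap between the groups, plus DEGs of 38 gene lists and the defining members of those lists. For the mean of 9, no overlap means outside all 35 libraries, or outside the 9 group means where fewer than 10 genes met that. Some genes that met these rules are not reported here. Of 1105 list entries 1004 matched the table, and 20411 of 21854 gene IDs matched a RefSeq symbol. Members and lists were chosen with earlier results of these data known. Alternatives covered pseudocount, filter, scaling, voom weights, the deposited scale, the groups fitted, lane, replicate number, and each library of the 2 groups left out (for the mean of 9, each TBBPA library and each whole chemical). The fits with estimated weights and without both TBBPA replicate 2 and TCEP replicate 2, and the list counts without replicate 2, were chosen after seeing the data.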

Additional observations from a re-analysis of the deposited data

Results flagged for a closer look

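Within groups of 4 libraries, 8 of 72 sets of values had an extreme library beyond Dixon's 95% limit for the gap over the range, where chance gives about 1 in 20. TBBPA replicate 2 accounted for 5 of them. It had 1506 genes at 0 reads (268 to 316 in the other TBBPA libraries), a median correlation of 0.831 with the other 42 libraries (0.948 to 0.962 in the other TBBPA libraries) and 9.56% of its reads in ribosomal protein genes (1.43% to 2.01% in the other TBBPA libraries). It was also apart in 2 named genes, with 698 normalized reads of the neuropeptide gene cart3 (137 to 203 in the other TBBPA libraries) and 64.9 of the retinoschisin gene rs1a (4.59 to 8.66). TBBPA-DBPE replicate 3 had 206 genes at 0 reads, against 153 to 159 in its group, and TBBPA-DBPE replicate 2 a median correlation of 0.963, against 0.968 to 0.969. DMSO replicate 2 had 6.01 normalized reads of ms4a17a.4, against 0 to 1.02 in the other DMSO libraries, which is far below the lowest TBBPA library at 82.8.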

How the results depend on the processing

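The count of DEGs moved with the processing. Against DMSO it was 854, 167 in a fit of the 8 libraries alone, and 649 to 1294 when each library was left out in turn (649 without TBBPA replicate 2, 1294 without TBBPA replicate 4). Against the mean of 9 it was 1275, 715 with a pseudocount of 5, 647 on the deposited log2 values, and 833 to 1929 with each TBBPA library left out (833 without TBBPA replicate 2, 1929 without TBBPA replicate 1). Against TBBPA-DBPE it was 1974, 510 in a fit of the 8 libraries alone, and 1309 to 2635 with each library left out (1309 without TBBPA replicate 2). The fits of 8 libraries have fewer residual degrees of freedom and estimate the spread from those libraries only. The part of each in the lower counts was not tested. Leaving out 1 of the 9 chemicals gave 1155 to 1378, voom weights 585, 861 and 1590 in the 3 comparisons, and estimated library weights, in which TBBPA replicate 2 had a weight of 0.0605, gave 714, 910 and 1470. Without TBBPA replicate 2 and TCEP replicate 2, the count against the mean of 9 was 946. With lane as a block the counts were 758, 1196 and 1782. The share of higher calls against the mean of 9 was 45.7%, and 65.0% with a pseudocount of 5, 64.1% on the deposited values and 33.4% without TBBPA replicate 2. The 75 pairs of a named gene and a comparison were picked by size among DEGs of the main fit. That choice favours stability. Of the 75, 65 kept direction and an adjusted p under 0.05 in every alternative and none reversed. The others lost the p in the fit of 8 libraries (opn6a, mag, rs1a, tnmd, tnni2a.2 and mir181b-2 against DMSO, opn6a, mag and pax10 against TBBPA-DBPE) or with voom (ddx23 against the mean of 9). Same-numbered TBBPA and DMSO libraries had correlations of deviations of -0.26, -0.13, 0.05 and -0.0014, and those of TBBPA and TBBPA-DBPE 0.0097, 0.11, 0.18 and 0.066. Different-numbered libraries had -0.20 to 0.27 and -0.32 to 0.21. So few values cannot exclude a pairing by replicate number. Replicates 1, 2 and 3 of TBBPA, TBBPA-DBPE and DMSO also carried lane labels 1, 2 and 3. The fit with the replicate block gave 875, 1291 and 1993 DEGs. Depth limits genes near 0 reads in TBBPA replicate 2, where 3 reads equal 5.9 normalized reads.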
